A study of Mus musculus with 6 samples.

Results

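Potassium, sodium and pacemaker channel subunits were followed in mouse left ventricle after ISO or saline injections. The set holds every gene symbol of the expression table that starts with Kcn, that reads Scn with a number and then a or b, or that reads Hcn with a number, and whose mean over the 6 libraries was at least 0.3 FPKM (fragments per kilobase and per library total, so corrected for gene length and depth). These were 60 of the 112 symbols that match the pattern, in a table of 21989 symbols. Of the 52 matching symbols under 0.3 FPKM, 5 were at 0 in every library. The genes just inside the limit were Hcn4 at a mean of 0.308 FPKM and Kcnma1 at 0.301 FPKM, and those just outside were Scn3a at 0.297 FPKM and Kcnj10 at 0.296 FPKM.

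Polyadenylated RNA was sequenced from the left ventricle of male C57BL/6 mice kept free of specific pathogens. The ISO group had been injected under the skin with ISO at 10 mg/kg/d for 3 weeks, and the saline group with an equal volume of normal saline. ISO commonly stands for isoproterenol (an agonist of beta-adrenergic receptors), and the labels describe the treated mice as a heart failure model. Each group has 3 libraries, which the labels call biological repeats without naming animals. A p-value here therefore covers only the spread among these samples, which may be technical.

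Voltage-gated sodium channels carry the fast upstroke of the cardiac action potential, and potassium channels of several families bring the membrane back to rest and hold it there. Each channel is built from pore-forming alpha subunits, and many also carry auxiliary subunits that set how much channel reaches the membrane and how fast it opens and closes. HCN channels open on hyperpolarization, bind cyclic AMP directly and drive the pacemaker depolarization of the sinoatrial node. In the mouse ventricle repolarization is fast and rests largely on transient outward and delayed rectifier currents of several Kv families, and lower abundance of several of these transcripts is a known feature of hypertrophied and failing hearts.

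The 6 libraries differed in depth and in character. Read totals, worked out from the smallest steps between FPKM values, were 5154283 to 7378782 reads in ISO and 2776152 to 9862363 reads in saline, so that 1 read on a gene of 1 kilobase was worth 0.136 to 0.194 FPKM in ISO, against 0.101 to 0.360 FPKM in saline. Saline 3 had the fewest reads and correlated least with the rest, at a Pearson r across genes of 0.811 to 0.846, where the other 5 libraries had 0.936 to 0.977 among themselves. The atrial light chain Myl7 stood above the ventricular light chain Myl2 in 5 of the 6 libraries, which goes against the labelled tissue, with a ratio of 5.82, 5.85 and 59.5 in ISO 1 to 3, against 6.49, 30.5 and 0.821 in saline 1 to 3. The 10 cardiomyocyte markers summed to 14436 to 21814 FPKM in ISO, against 33426 to 42679 FPKM in saline, and 6 of the 10 were lower in every ISO library. Summed over 5 markers each, fibroblast genes stood at 990 to 1165 FPKM in ISO, against 533 to 808 FPKM in saline, macrophage genes at 266 to 431 and 138 to 250 FPKM, and erythroid genes at 10806 to 20845 and 2109 to 4677 FPKM. In these lists 3, 4 and 4 markers were higher in every ISO library. The ventricular (146 to 1996 and 530 to 9107 FPKM), atrial (15130 to 18048 and 10424 to 26372 FPKM), smooth muscle and pericyte (289 to 415 and 256 to 403 FPKM) and endothelial sums (293 to 330 and 104 to 313 FPKM) of ISO and saline overlapped. In such bulk samples fewer cells of a type and less RNA per cell cannot be told apart, and the part of these marker differences in the channel values below was not tested.

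None of the 60 channel genes passed the test between ISO and saline, and 0% of the 14218 genes tested did so in either direction (limma, Benjamini-Hochberg adjusted p under 0.05, smallest adjusted p of any gene 0.708). At an unadjusted p under 0.05, 2 channel genes were higher in ISO (Kcnk13 and Kcne1l), where 4.68% of all genes were, and 4 were lower (Scn4a, Kcnk3 and Kcna7 among them), where 1.35% of all genes were. The log2 fold change was positive for 25 and negative for 35 of the 60, while 66.1% of all genes were positive and 33.9% negative. The median log2 fold change was -0.18 over the channel genes and 0.17 over all tested genes. The levels in ISO lay above those of every saline library for 6 channel genes (Scn7a, Kcnt2, Scn3b, Kcnk13 and Kcne1l among them), where 12.1% of all genes showed this. They lay below every saline library for 5 (Kcnk3, Scn4a, Kcna7 and Scn8a among them), where 3.77% of all genes showed this. Kcne1l was above 0.3 FPKM only in ISO libraries and Scn8a only in saline 3, so each is in the set through the group where it was high.

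The count of genes without overlap depended on saline 3. Against saline 1 and 2 alone, 15 channel genes were lower in every ISO library, where 9.57% of all genes were. They included Kcnk3, Kcnh2, Kcnj3, Kcng2, Kcnj5, Kcnq1, Kcnd3, Kcnn2, Scn10a, Scn4a, Kcna7 and Scn8a, the last in the set only through saline 3. Higher in every ISO library were 6 in this comparison, where 17.6% of all genes were. With limma sample quality weights, under which ISO 2 counted most (4.75) and saline 3 least (0.0807), 3 channel genes passed. Kcne1l was higher (log2 fold change 0.80, limma adjusted p = 0.0459) where 1.94% of all genes were called, and Kcnn2 (-1.23, adjusted p = 0.0280) and Scn4a (-1.31, adjusted p = 0.0329) were lower where 1.01% were called. Kcne1l is in the set only through its ISO libraries, with a mean of 0.624 FPKM in ISO and 0.0365 FPKM in saline.

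**Figure D1:**
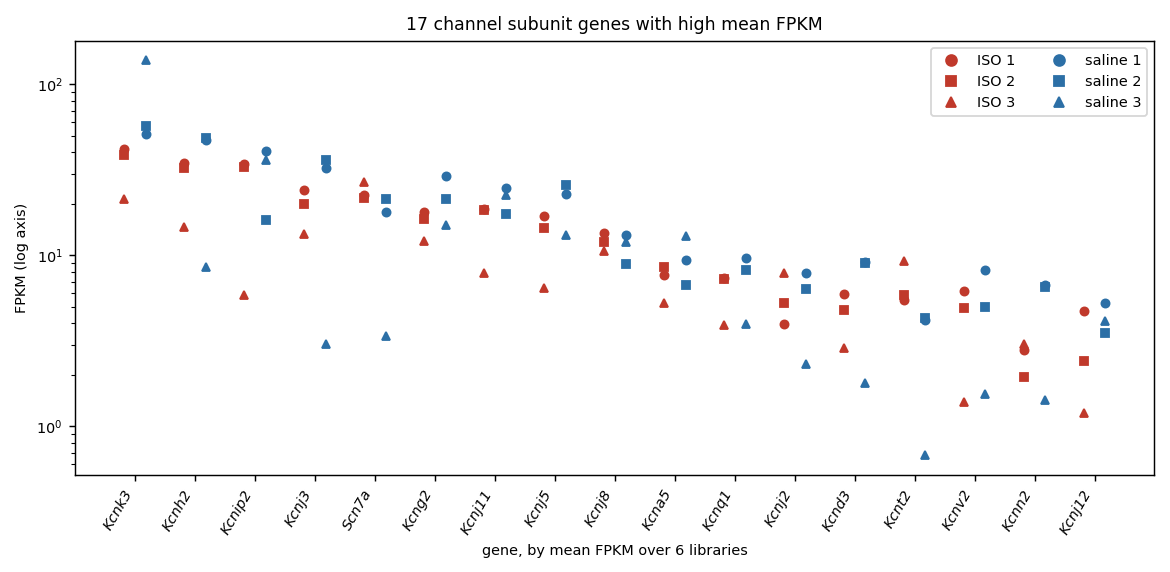
FPKM on a log axis of 17 of the 20 channel subunit genes with the highest mean over 6 libraries, with ISO libraries in red and saline libraries in blue and a marker shape for each library number. Saline 3 lies far below saline 1 and 2 for Kcnh2, Kcnj3, Scn7a and Kcnt2 and far above them for Kcnk3.

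Sodium channel alpha subunits differed in direction among themselves. Scn4a encodes Nav1.4, the sodium channel of skeletal muscle (chromosome 11, 106317545 to 106365559), and it had 2.23, 0.953 and 0.448 FPKM in ISO 1 to 3, against 4.57, 3.97 and 2.88 FPKM in saline 1 to 3. Every ISO library was below every saline library. Its log2 fold change of -1.19 (SE 0.36, limma unadjusted p = 0.0129, adjusted p = 0.708) was -1.33 without saline 3. Skeletal muscle markers overlapped between the groups, at a sum over 6 genes of 82.6 to 495 FPKM in ISO, against 211 to 1308 FPKM in saline, with Myh4 and Myh1 at 0 in some libraries. Most of each sum was Ckm, at 465, 394 and 49.8 FPKM in ISO 1 to 3, against 305, 194 and 973 FPKM in saline 1 to 3. The range therefore describes mainly that gene and does not measure skeletal muscle in the samples.

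Scn7a encodes Nax, a sodium-sensing relative of the sodium channels known from glia (chromosome 2, 66673426 to 66784910). It had 22.5, 21.6 and 26.9 FPKM in ISO 1 to 3, against 17.8, 21.2 and 3.39 FPKM in saline 1 to 3. The groups did not overlap, but ISO 2 and saline 2 nearly touched and saline 3 lay far below. A log2 fold change of 1.01 (SE 0.59) with all libraries became 0.27 without saline 3. Summed Schwann cell and nerve markers, 5 genes, ran from 26.5 to 134 FPKM in ISO and from 34.5 to 56.2 FPKM in saline.

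Scn10a, the Nav1.8 channel of sensory neurons on chromosome 9, had 3.24, 2.76 and 1.52 FPKM in ISO 1 to 3, against 4.24, 4.77 and 1.40 FPKM in saline 1 to 3. It was lower in every ISO library than in saline 1 and 2. Scn8a, the neuronal Nav1.6, had 0.108, 0.0562 and 0.0258 FPKM in ISO 1 to 3, against 0.206, 0.149 and 5.40 FPKM in saline 1 to 3. These values stood on 11, 4 and 2 reads in ISO and on 28, 13 and 207 reads in saline, so the lack of overlap outside saline 3 rests on few reads. Scn8a was above 0.3 FPKM in saline 3 only, so it is in the set through that library. Scn2a1, the neuronal Nav1.2, was likewise highest in saline 3, with 0.0295, 0.190 and 0.407 FPKM in ISO 1 to 3, against 0.166, 0.535 and 2.86 FPKM in saline 1 to 3.

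The promoter windows of Scn7a and Scn4a are shown because their groups did not overlap and they differ in direction. Each runs 5′ to 3′ on the minus strand from 250 bases before to 50 bases after a RefSeq start on GRCm38.p6, at chr2:66784861-66785160 for Scn7a and at chr11:106349341-106349640 for Scn4a. The Scn4a window lies wholly inside the gene span given above, so its start is not the outermost one of the gene. The capitals in Scn7a mark a match to the GATA motif AGATAA, found on the other strand at base 135, and this Scn4a window held no match to any motif searched.
Scn7a: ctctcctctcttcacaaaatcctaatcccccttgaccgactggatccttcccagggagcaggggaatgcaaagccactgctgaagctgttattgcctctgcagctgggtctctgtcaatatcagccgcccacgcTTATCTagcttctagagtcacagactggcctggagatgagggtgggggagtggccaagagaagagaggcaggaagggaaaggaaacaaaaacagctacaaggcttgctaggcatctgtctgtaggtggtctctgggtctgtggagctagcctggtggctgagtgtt
Scn4a: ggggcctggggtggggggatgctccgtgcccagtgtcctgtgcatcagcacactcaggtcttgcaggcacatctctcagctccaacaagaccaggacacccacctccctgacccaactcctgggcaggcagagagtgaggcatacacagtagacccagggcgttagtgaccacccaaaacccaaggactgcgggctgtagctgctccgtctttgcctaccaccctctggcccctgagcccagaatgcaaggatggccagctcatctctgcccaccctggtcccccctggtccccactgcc

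Sodium channel beta subunits traffic and tune the alpha subunits and act in cell adhesion. Scn3b (chromosome 9, 40269216 to 40291618) had 1.27, 1.59 and 1.33 FPKM in ISO 1 to 3, against 0.831, 0.706 and 0.169 FPKM in saline 1 to 3, without overlap. Its log2 fold change of 0.64 was 0.44 without saline 3. Scn4b, the subunit linked to resurgent sodium current, went the other way on average, with 0.479, 0.823 and 0.0420 FPKM in ISO 1 to 3, against 0.717, 1.42 and 2.38 FPKM in saline 1 to 3. ISO 2 lay above saline 1, so those groups overlapped. Scn2b, its neighbour at a distance of 8554 bases on chromosome 9, had 0.202, 0.248 and 0.341 FPKM in ISO 1 to 3, against 0.216, 0.472 and 0.460 FPKM in saline 1 to 3.

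Transient outward potassium channels repolarize the mouse ventricle early and combine the pore subunits Kcnd2 (Kv4.2) and Kcnd3 (Kv4.3) with the calcium-binding protein Kcnip2 (KChIP2). Kcnip2 (chromosome 19, 45792346 to 45816422) had 34.1, 32.7 and 5.84 FPKM in ISO 1 to 3, against 40.8, 16.1 and 36.0 FPKM in saline 1 to 3. Saline 2 lay below ISO 1 and ISO 2, so the groups overlapped, while ISO 3 lay below every saline library. The log2 fold change of -0.57 (SE 0.68) turned to 0.21 without ISO 3. Kcnd3 had 5.95, 4.77 and 2.86 FPKM in ISO 1 to 3, against 9.08, 8.96 and 1.79 FPKM in saline 1 to 3, so that it was lower than saline 1 and 2 but not than saline 3. Kcnd2 had 1.73, 1.62 and 0.431 FPKM in ISO 1 to 3, against 1.45, 1.53 and 0.317 FPKM in saline 1 to 3, and the groups overlapped. The ratio of Kcnip2 to Kcnd2 was 19.7, 20.1 and 13.5 in ISO 1 to 3, against 28.1, 10.5 and 114 in saline 1 to 3, also with overlap. Kcna4 (Kv1.4), the pore of the slow transient outward current, averaged 0.220 FPKM, below the limit of 0.3 FPKM.

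Delayed rectifiers end the action potential. Kcnh2 (ERG, the rapid component; chromosome 5, 24319589 to 24351684) had 34.7, 32.3 and 14.7 FPKM in ISO 1 to 3, against 46.8, 48.2 and 8.51 FPKM in saline 1 to 3. Saline 3 was the lowest library of all, and the log2 fold change of -0.09 (SE 0.67) was -0.87 without it. Kcnq1, the pore of the slow component, had 7.37, 7.22 and 3.92 FPKM in ISO 1 to 3, against 9.63, 8.22 and 3.96 FPKM in saline 1 to 3. ISO 3 and saline 3 were almost equal there. Kcne1, its auxiliary subunit, had 1.15, 0.627 and 0.105 FPKM in ISO 1 to 3, against 0.506, 0.0466 and 0.846 FPKM in saline 1 to 3, with no order between the groups.

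Kcna5 (Kv1.5) carries an ultrarapid current in mouse myocytes. Kcna5 had 7.67, 8.52 and 5.28 FPKM in ISO 1 to 3, against 9.38, 6.65 and 12.9 FPKM in saline 1 to 3. The groups overlapped. Kcng2 and Kcnv2 are silent subunits that form channels only together with other Kv alpha subunits. Kcng2 had 17.9, 16.2 and 12.1 FPKM in ISO 1 to 3, against 28.9, 21.4 and 15.1 FPKM in saline 1 to 3, and Kcnv2 had 6.20, 4.89 and 1.39 FPKM in ISO, against 8.22, 4.98 and 1.53 FPKM in saline. Both overlapped between groups, and Kcng2 was above Kcnv2 in every library on a scale already divided by gene length.

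Among Kv alpha genes the groups did not overlap for Kcna7, which was low in this tissue. Kcna7 (Kv1.7, found in heart and skeletal muscle; chromosome 7, 45405960 to 45411382) had 0.659, 0.444 and 0.408 FPKM in ISO 1 to 3, against 1.31, 0.953 and 3.09 FPKM in saline 1 to 3. Saline 3 was the highest library, and the log2 fold change of Kcna7 was -0.82 (SE 0.34, limma unadjusted p = 0.0436, adjusted p = 0.708) with it and -0.50 without it. The genes Kcna5, Kcna1 and Kcna6 lie side by side on chromosome 6 over gaps of 100908 and 62527 bases. Their values did not follow one order, since Kcna1 had its highest values in ISO 1 and ISO 2, with 2.58, 2.47 and 1.95 FPKM in ISO 1 to 3, against 2.23, 1.40 and 0.643 FPKM in saline 1 to 3, while Kcna6, which shares 39.6% of its exon bases with Gm26673, had 1.20, 1.29 and 0.707 FPKM in ISO, against 1.03, 0.931 and 1.72 FPKM in saline.

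Other Kv alpha genes overlapped between groups. Kcna2 (Kv1.2) had 1.61, 1.52 and 2.17 FPKM in ISO 1 to 3, against 1.35, 1.81 and 0.710 FPKM in saline 1 to 3. Kcnd1 (Kv4.1) was listed at 0 in saline 3, where 3 reads would be 0.283 FPKM, and at 1.35 to 1.79 FPKM in the other 5 libraries. The 16 Kv alpha genes summed to 97.7, 91.5 and 52.9 FPKM in ISO 1 to 3, against 134, 118 and 58.5 FPKM in saline 1 to 3 (exact two-sided permutation p = 0.4). ISO 3 and saline 3 were low together, and the fold change was positive for 5 and negative for 11 of these genes.

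Auxiliary Kv subunits other than Kcnip2 were low. Kcne1l, a KCNE1-like subunit (chromosome X, 142304753 to 142306198), had 0.562, 0.939 and 0.370 FPKM in ISO 1 to 3, against 0, 0.110 and 0 FPKM in saline 1 to 3. It stood on 6, 7 and 3 reads in ISO and on 0, 1 and 0 reads in saline, and the log2 fold change was 0.63 (SE 0.24, limma adjusted p = 0.708). Only its ISO libraries were above 0.3 FPKM, so the limit on the mean favoured this direction. Kcnab2, a beta subunit of Kv1 channels, had 1.46, 1.83 and 2.23 FPKM in ISO 1 to 3, against 2.13, 3.75 and 2.43 FPKM in saline 1 to 3. Kcne3 and Kcnab1 were higher in ISO 3 and saline 3 alike, at 2.29 and 2.37 FPKM for Kcne3 and 1.61 and 2.12 FPKM for Kcnab1, against 0.844 FPKM or less in the other libraries for both. Kcne4, which inhibits several Kv channels, had 0.990, 1.81 and 2.60 FPKM in ISO 1 to 3, against 1.07, 1.29 and 2.19 FPKM in saline 1 to 3, with overlap.

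**Figure D2:**
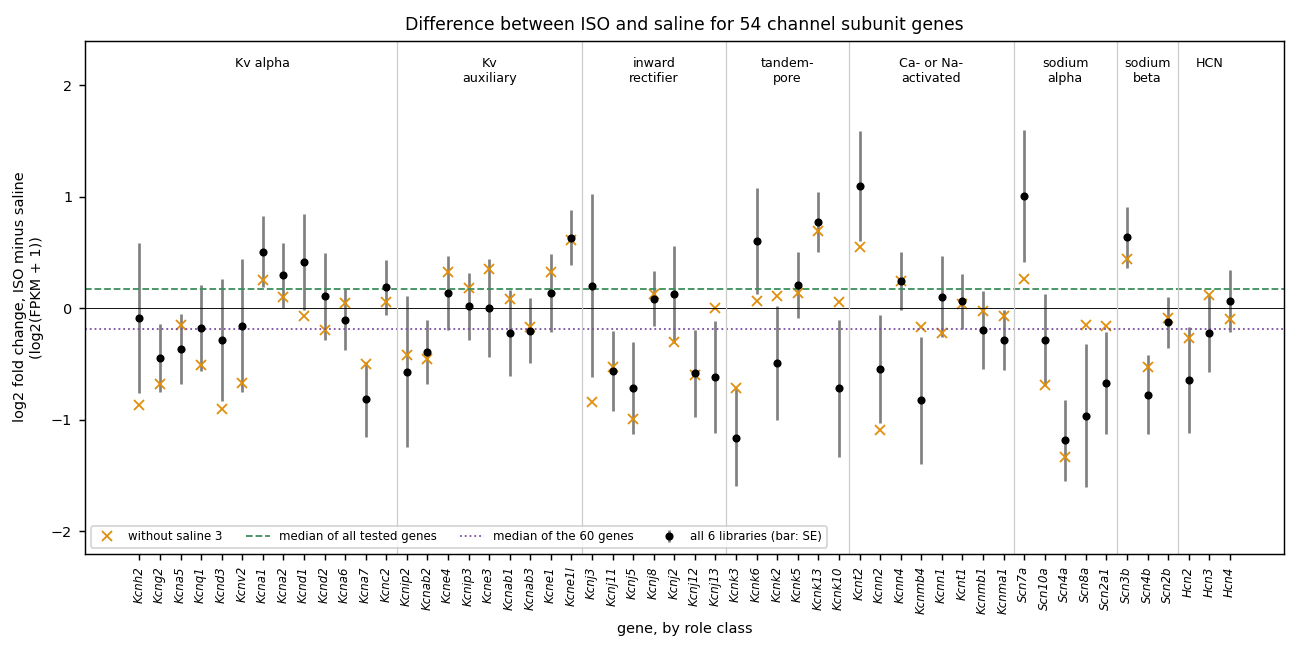
Log2 fold change (ISO minus saline, on log2(FPKM + 1)) of 54 of the 60 channel genes by role class, as black points with bars of 1 SE, and without saline 3 as orange crosses. The dashed line is the median of all tested genes (0.17) and the dotted line that of the 60 genes (-0.18). For Kcnh2, Kcnj3, Kcnt2 and Scn7a the cross lies well below the point.

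Inward rectifiers hold the resting potential and open in answer to transmitters or low ATP. Kcnj3 and Kcnj5 together form the channel that acetylcholine opens through G proteins, which is most abundant in atria. Kcnj5 (chromosome 9, 32314706 to 32344380) had 17.0, 14.3 and 6.44 FPKM in ISO 1 to 3, against 22.9, 25.8 and 13.2 FPKM in saline 1 to 3, and its log2 fold change was -0.71 (SE 0.41) and -0.99 without saline 3. Kcnj3 (chromosome 2, 55411798 to 55598145) had 24.1, 19.8 and 13.3 FPKM in ISO 1 to 3, against 32.2, 35.9 and 3.01 FPKM in saline 1 to 3. Its direction rested on saline 3, since the log2 fold change was 0.20 with all libraries and -0.84 without that one. The pair kept nearly the same ratio in ISO 1, ISO 2, saline 1 and saline 2, with Kcnj3 over Kcnj5 at 1.42, 1.38 and 2.07 in ISO 1 to 3, against 1.41, 1.39 and 0.228 in saline 1 to 3. Kcnj3 shares 31.1% of its annotated exon bases with Gm26794, and without a known strand setting reads of the 2 genes cannot be told apart.

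ATP-sensitive channels pair Kcnj11 (Kir6.2) or Kcnj8 (Kir6.1) with the sulfonylurea receptors Abcc8 and Abcc9. Kcnj11 had 18.7, 18.4 and 7.91 FPKM in ISO 1 to 3, against 24.5, 17.3 and 22.3 FPKM in saline 1 to 3. Kcnj8 varied less, with 13.4, 11.9 and 10.6 FPKM in ISO 1 to 3, against 13.1, 8.91 and 11.9 FPKM in saline 1 to 3. Their ratio, Kcnj11 over Kcnj8, was 1.40, 1.55 and 0.749 in ISO 1 to 3, against 1.88, 1.95 and 1.88 in saline 1 to 3. It was lower in every ISO library, with a log2 difference of -0.70 (exact two-sided permutation test, p = 0.1, the smallest that 3 against 3 allows, and 0.333 when adjusted over the 20 ratios and shares tested). A ratio within a library does not depend on library scaling, but it can move through either gene and through the mix of cells. The saline ratios lay within 1.88 to 1.95 although saline 3 differed from saline 1 and 2 for many other channel genes.

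Kcnj2 and Kcnj12 carry the strong inward rectifier current of ventricular myocytes. Kcnj2 (Kir2.1) had 3.98, 5.27 and 7.88 FPKM in ISO 1 to 3, against 7.82, 6.32 and 2.31 FPKM in saline 1 to 3. Kcnj12 (Kir2.2) had 4.69, 2.41 and 1.20 FPKM in ISO 1 to 3, against 5.27, 3.49 and 4.11 FPKM in saline 1 to 3. Both overlapped, and their ratio ran from 0.848 to 6.58 in ISO and from 0.563 to 1.81 in saline. Kcnj13 (Kir7.1), listed at 2.59 FPKM in saline 3 and at 0 in the other 5 libraries, shares 49.1% of its exon bases with Gigyf2. The 7 inward rectifier genes summed to 81.8, 72.1 and 47.3 FPKM in ISO 1 to 3, against 106, 97.7 and 59.4 FPKM in saline 1 to 3 (exact permutation p = 0.3).

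Tandem-pore channels carry background potassium current, and Kcnk3 (TASK-1, closed by external acid; chromosome 5, 30588170 to 30625270) had the highest mean FPKM of the 60 genes. It had 41.5, 38.3 and 21.4 FPKM in ISO 1 to 3, against 51.2, 56.8 and 137 FPKM in saline 1 to 3. Every ISO library lay below every saline library, by a narrow step to saline 1 and by a wide one to saline 3. The means were 33.8 ± 10.8 FPKM in ISO and 81.8 ± 48.2 FPKM in saline (SD, n = 3 each). The log2 fold change of -1.16 (SE 0.44, limma unadjusted p = 0.0319, adjusted p = 0.708) was -0.72 without saline 3, and 85.0%, 85.7% and 78.1% of tandem-pore FPKM was Kcnk3 in ISO 1 to 3, against 91.7%, 91.0% and 93.4% in saline 1 to 3.

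Kcnk13 (THIK-1, a channel of microglia and macrophages; chromosome 12, 99963149 to 100062682) stood the other way, with 1.00, 1.50 and 1.60 FPKM in ISO 1 to 3, against 0.228, 0.713 and 0.231 FPKM in saline 1 to 3. All ISO libraries were above all saline libraries, from 23, 24 and 28 reads in ISO and 7, 14 and 2 reads in saline. For Kcnk13 the log2 fold change was 0.78 (SE 0.27, limma unadjusted p = 0.0225, adjusted p = 0.708) and 0.70 without saline 3. The macrophage marker sum, given above, was higher in ISO as well, and so were 4 of its 5 markers in every ISO library. The other tandem-pore genes overlapped: Kcnk6 (TWIK-2) had 3.98, 2.85 and 3.22 FPKM in ISO 1 to 3, against 2.75, 3.53 and 0.352 FPKM in saline 1 to 3. Saline 3 stood apart for the stretch-gated TREK channels, where Kcnk2 had 0.573, 0.784 and 0.458 FPKM in ISO 1 to 3, against 0.298, 0.699 and 4.17 FPKM in saline 1 to 3, and Kcnk10 had 4.23 FPKM in saline 3 and 0.192 FPKM or less elsewhere. The 6 genes summed to 48.9, 44.7 and 27.4 FPKM in ISO 1 to 3, against 55.8, 62.5 and 147 FPKM in saline 1 to 3, without overlap (exact permutation p = 0.1, adjusted p = 0.4 over 8 classes), and most of that sum is Kcnk3. After scaling to cardiomyocyte markers the difference between ISO and saline was -8.52, against -48.1 FPKM before it (exact permutation p = 1 after scaling).

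Among calcium- and sodium-activated channels the highest mean over the 6 libraries was that of Kcnt2 (Slick, opened by internal sodium, chromosome 1, 140245657 to 140614045). Kcnt2 had 5.44, 5.85 and 9.27 FPKM in ISO 1 to 3, against 4.21, 4.27 and 0.681 FPKM in saline 1 to 3. ISO lay above saline in all libraries, with ISO 3 highest and saline 3 lowest. For Kcnt2 the log2 fold change of 1.10 (SE 0.49) was 0.55 without saline 3 and did not pass (limma adjusted p = 0.708). Kcnn2 (SK2, a calcium-activated channel prominent in atria) had 2.77, 1.93 and 3.04 FPKM in ISO 1 to 3, against 6.67, 6.49 and 1.42 FPKM in saline 1 to 3. Saline 3 was the lowest library and the other saline libraries the highest, so the log2 fold change was -0.55 with saline 3 and -1.10 without it. Kcnn2 was above Kcnt2 in every saline library and below Kcnt2 in every ISO library.

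The remaining genes of this class were below 3 FPKM except in saline 3. Kcnn4 (the intermediate-conductance channel of red cells and immune cells) had 1.81, 2.67 and 2.30 FPKM in ISO 1 to 3, against 2.01, 1.47 and 1.75 FPKM in saline 1 to 3. Its groups overlapped. The erythroid and macrophage sums did not overlap, with 4 of the 5 markers of each list higher in every ISO library. A relation of Kcnn4 to these markers was not tested. Kcnmb4, a neuronal beta subunit of the large-conductance channel that shares 31.5% of its exon bases with antisense genes, had 4.60 FPKM in saline 3 and 0.782 FPKM or less in the other libraries. Kcnt2 took 39.4%, 47.2% and 57.1% of the class sum in ISO 1 to 3, against 26.1%, 28.7% and 6.18% in saline 1 to 3 (exact permutation p = 0.1, adjusted p = 0.333). Kcnt2 was taken for this share by its mean over all 6 libraries, which its ISO values raised, so the choice favoured this direction. The class sum itself was 13.8, 12.4 and 16.2 FPKM in ISO 1 to 3, against 16.1, 14.8 and 11.0 FPKM in saline 1 to 3, with full overlap.

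**Figure D3:**
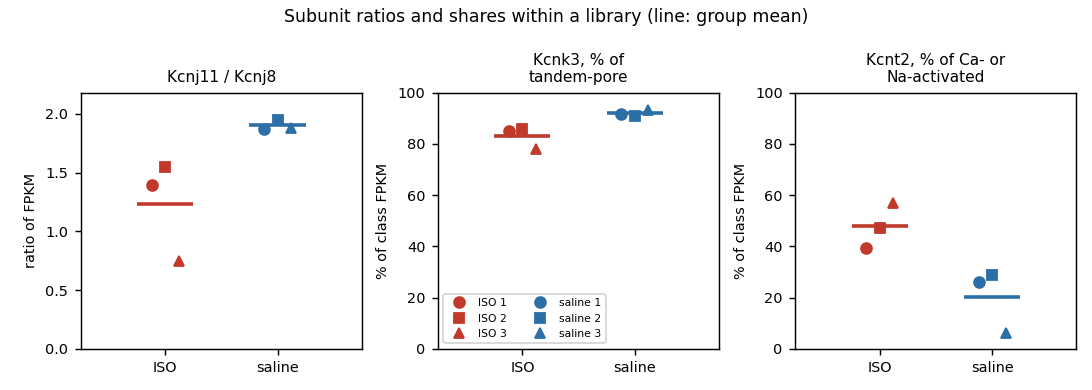
The ratio of Kcnj11 to Kcnj8 in FPKM (left) and the percent of a class sum held by Kcnk3 (middle) and Kcnt2 (right) in each library, ISO left of saline, with a line at each group mean. In each panel the 3 ISO values lie on one side of the 3 saline values, below them for Kcnj11 over Kcnj8 and for Kcnk3 and above them for Kcnt2.

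The promoter windows of Kcnk13 and Kcnt2 are shown because these were the potassium pore genes whose ISO libraries all stood above saline. Both lie on the plus strand of GRCm38.p6, read 5′ to 3′ as RefSeq has them, at chr12:99964249-99964548 for Kcnk13 and chr1:140245468-140245767 for Kcnt2. The Kcnk13 window lies wholly inside the gene span given above, so its start is not the outermost one of the gene. The capitals mark the M-CAT motif CATTCCT at base 128 of Kcnk13 and, on the other strand at base 160 of Kcnt2, the core TGACG of the cyclic AMP response element.
Kcnk13: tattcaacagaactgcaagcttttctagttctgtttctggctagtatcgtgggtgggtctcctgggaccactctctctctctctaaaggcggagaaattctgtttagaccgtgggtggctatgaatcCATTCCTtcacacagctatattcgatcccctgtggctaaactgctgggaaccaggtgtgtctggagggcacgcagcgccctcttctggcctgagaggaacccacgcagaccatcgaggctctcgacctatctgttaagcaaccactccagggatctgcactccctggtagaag
Kcnt2: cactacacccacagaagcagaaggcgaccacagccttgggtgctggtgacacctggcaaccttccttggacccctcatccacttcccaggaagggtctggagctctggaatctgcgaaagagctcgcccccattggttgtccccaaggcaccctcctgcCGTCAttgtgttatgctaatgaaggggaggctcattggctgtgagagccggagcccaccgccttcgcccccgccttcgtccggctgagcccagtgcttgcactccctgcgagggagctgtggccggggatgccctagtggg

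In all, 5 motifs were searched on both strands in the windows of 300 bases. Of the 60 genes, 40 had a window in the table used, and together these held 57 windows, set beside 32851 windows of all genes. The full cyclic AMP response element TGACGTCA was in 0 of the 57 and in 1.79% of all windows. Its core TGACG, which is part of the full element, was in 8 of the 57 (14%) and in 20.8% of all windows, and the genes were Kcna6, Kcnab2, Kcne4, Kcnj13, Kcnj8, Kcnn1, Kcnt2 and Scn10a. The MEF2 motif, CTA and TAG with any 4 bases between them, was in 0 of the 57 and in 3.69% of all, the GATA motif AGATAA in 2 (3.51%, Kcnip3 and Scn7a) and in 11.2% of all. The M-CAT motif CATTCCT was in 4 (7.02%) and in 5.36% of all. A match is a description of letters, and its absence says only that these letters are not in that window.

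HCN pacemaker channels were low, and Hcn2, the main ventricular isoform, led them. Hcn2 had 2.63, 2.55 and 0.557 FPKM in ISO 1 to 3, against 2.28, 2.23 and 6.20 FPKM in saline 1 to 3. ISO 1 and 2 and saline 1 and 2 were close together, while ISO 3 was the lowest and saline 3 the highest. Hcn4, the main isoform of the sinoatrial node, had 0.428, 0.102 and 0.469 FPKM in ISO 1 to 3, against 0.267, 0.584 and 0 FPKM in saline 1 to 3. It stood on 6, 1 and 5 reads in ISO and 5, 7 and 0 reads in saline, over a counted length of 1899 bases where the annotation has 6118 exon bases. At this depth no difference in Hcn4 was detectable. Hcn3 had 0.286, 0.136 and 0.334 FPKM in ISO 1 to 3, against 0.0475, 0.260 and 1.35 FPKM in saline 1 to 3. The 7 sinoatrial node markers, which include Hcn4, summed to 19.9 to 33.8 FPKM in ISO, against 20.9 to 25.7 FPKM in saline.

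**Figure D4:**
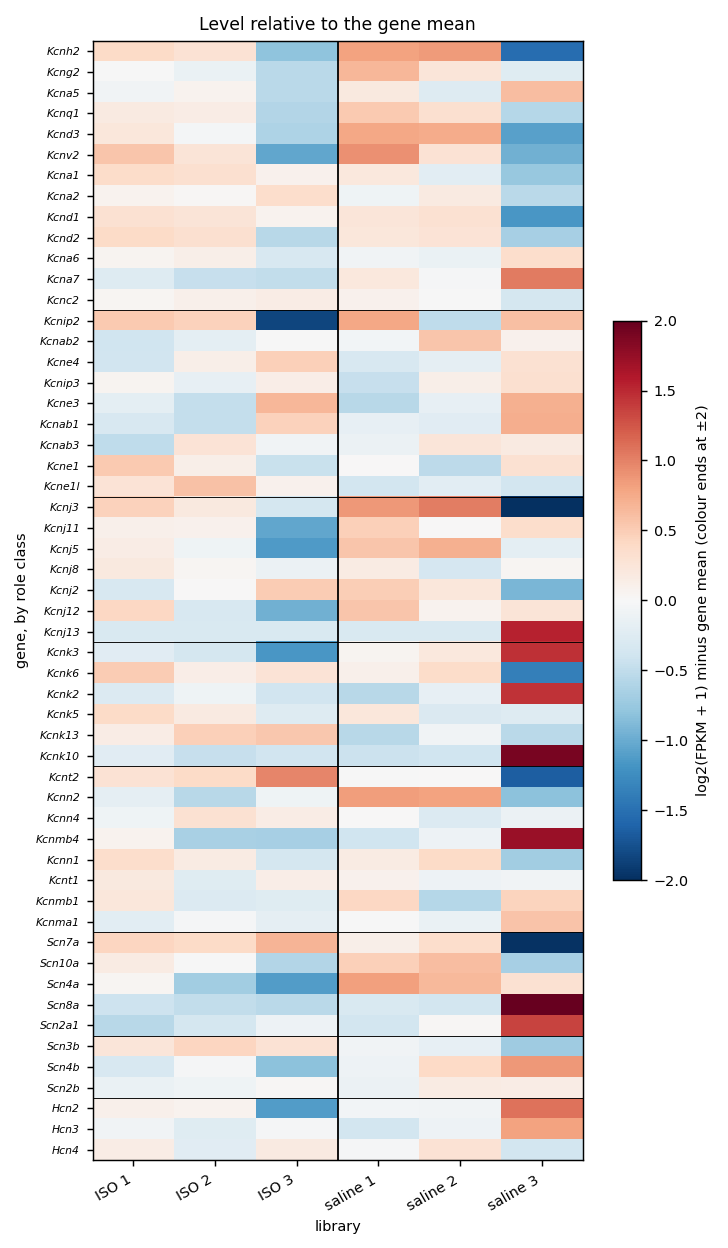
Level of 54 channel genes in each library as log2(FPKM + 1) minus the mean of that gene over the 6 libraries, with ISO libraries left of saline libraries and genes grouped by role class. Red is above and blue below the gene mean, and colours end at 2 in either direction. The column of saline 3 holds the darkest cells in both colours, and ISO 3 the most blue of the ISO columns.

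Libraries of 1 group differed from each other for many of the 60 genes. Saline 3 held the highest value of 19 and the lowest value of 19 of the 60 genes, and ISO 3 the highest of 8 and the lowest of 19. On the log2(FPKM + 1) scale 0 genes differed over 2-fold between ISO 1 and ISO 2 and 1 between saline 1 and saline 2, while 1 differed so between ISO 1 and saline 1. Against saline 3, saline 1 and saline 2 differed over 2-fold for 22 and 23 genes, and against ISO 3, ISO 1 and ISO 2 for 9 and 7 genes. The total FPKM of the 60 genes was 366, 335 and 226 in ISO 1 to 3, against 438, 407 and 387 in saline 1 to 3, so all ISO totals were below all saline totals, at 309 ± 73.2 FPKM in ISO and 411 ± 26.0 FPKM in saline (SD, n = 3 each). This order rested on Kcnk3, at 137 FPKM in saline 3 and 21.4 to 56.8 FPKM in the other libraries. Without Kcnk3 the total of saline 3 falls below those of ISO 1 and ISO 2, and the groups overlap. The 11 genes with a mean of 10 FPKM or more made up 66.9% to 74.6% of the total of the 60 genes. The genes Kcnc2, Kcnip3, Kcnab3, Kcnk5, Kcnn1, Kcnt1, Kcnmb1 and Kcnma1 lay between 0 and 2.18 FPKM in all libraries, and their groups overlapped.

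Scaling each library to its cardiomyocyte markers changed the sign of many channel genes. On that scale the log2 fold change was positive for 47 of the 60, where 93.2% of all genes were positive, and the median was 0.37 over the channel genes and 0.89 over all genes. Without overlap 19 channel genes were higher in ISO, where 58.3% of all genes were, and 1 (Scn8a, in the set only through saline 3) was lower, where 0.246% were. Kcnj5 had a log2 fold change of 0.11 and Kcnh2 of 0.76 on this scale, each against a negative value on the FPKM scale. Kcnk3 at -0.28 and Scn4a at -0.65 kept a negative sign but overlapped between groups.

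Partners and regulators of these channels were read from a list of 30 gene symbols that the symbol rule does not take. Of these symbols, 29 were in the table and 27 were tested, 0 passed, 11 had a positive and 16 a negative log2 fold change, and the median was -0.12. Among all tested genes 66.1% were positive and 33.9% negative, with a median of 0.17. Cav3, the muscle caveolin that binds sodium and potassium channels at the membrane, had 24.4, 25.8 and 21.6 FPKM in ISO 1 to 3, against 43.6, 37.5 and 52.3 FPKM in saline 1 to 3. It was lower in every ISO library (log2 fold change -0.86, SE 0.22, limma adjusted p = 0.708). Ank3 (ankyrin-G, which anchors sodium channels at the intercalated disc) had 3.06, 2.84 and 2.53 FPKM in ISO 1 to 3, against 3.93, 4.07 and 5.85 FPKM in saline 1 to 3, without overlap. Akap9 (yotiao, the anchoring protein of the Kcnq1 and Kcne1 channel) had 5.11, 5.01 and 4.66 FPKM in ISO 1 to 3, against 3.92, 4.21 and 1.04 FPKM in saline 1 to 3, also without overlap and higher in ISO. The other gene of the list without overlap among those tested was Irx5, higher in ISO. In all, 2 of the 27 were higher and 2 lower without overlap, where 12.1% and 3.77% of all genes were.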

How the data were processed

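The members and gene lists were chosen with earlier results of these data known. The deposited values are FPKM per gene symbol, made by the authors. Tools named in the submitters' processing notes, without role or order, are HTSeq 0.7.2, DESeq, Cufflinks 2.2.1, fastp 0.20.0, CASAVA 1.8 and HISAT2 2.1.0, with the build GRCm38. The annotation release and strand setting are not given in the sources used here. FPKM is relative to the library total, so abundant genes of 1 group lower all others.

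From these values, genes with a mean of at least 0.3 FPKM over the 6 libraries (14218) were tested as log2(FPKM + 1) with limma 3.58.1 in R 4.3.3 (mean-variance trend and no covariate, Benjamini-Hochberg adjustment, threshold 0.05). Fold changes on that scale understate differences of low genes. The smallest exact p for 3 against 3 is 0.1. Class sums, ratios and shares were tested by exact two-sided permutation over libraries in Python 3.11.15 with scipy 1.17.1. Whole reads were recovered from the FPKM steps for 100% of 16816 genes within 0.0001 of a whole number, and gave depth and 95% exact Poisson intervals that cover counting error only. On simulated data for 16449 genes 98.4% were recovered exactly. On simulated data for 14047 genes limma called 60% of those raised 4-fold in ISO and 91% of those raised 16-fold, with 14 unchanged genes called. No gene was lowered in ISO there, so these shares do not cover genes lower in ISO. In that simulation each gene had 1 spread in all libraries, unlike saline 3. Pairs of libraries in a group differed by 4.59 to 46.2 times the chi-square that sampling gives, so all 6 were counted as separate. Any member could be named, and those described in full were the highest of each class, those with the smallest p and those known for a cardiac current. Positions and promoter windows are from RefSeq on GRCm38.p6, to which all 60 members were matched, and shared exon bases from GENCODE on GRCm38. Alternatives tried were other pseudocounts, filters, scalings, quality weights, a replicate block, limma-voom on recovered reads and each library left out. Some genes and class sums that the design covers are not reported here, and counts over the 60 members include them.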

Additional observations from a re-analysis of the deposited data

How the results depend on the processing

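The alternatives were set with the design and none was added. Calling 0 genes held except with sample quality weights (419 genes, 3 of them channel genes) and without ISO 1 (16 genes, so leaving out 1 library gave 0 to 16, and 0 to 0 of the channel genes). With replicate numbers as a replicate block 0 genes were called and the channel median stayed at -0.18, and the numbers did not pair the libraries, since same-numbered ISO and saline libraries correlated at 0.009, -0.132 and -0.023 in their deviations from the group means. Limma-voom on recovered reads called 0 genes. The channel median was -0.37 after quantile normalization, 0.37 after scaling to cardiomyocyte markers and -0.25 to -0.06 with 1 library left out. The 5 genes lower in ISO without overlap (3.77% of all genes) were 9 after median-of-ratios scaling, 1 after cardiomyocyte scaling (0.246% of all genes) and 7 to 15 with 1 library left out (8 without ISO 1, 9 without saline 1, 10 without saline 2, 15 without saline 3, where 9.57% of all genes were), in part because fewer libraries overlap less. The 6 higher ones (12.1% of all genes) were 19 after cardiomyocyte scaling (58.3% of all genes) and 6 to 9 with 1 library left out (6 without saline 3, where 17.6% of all genes were). For the other settings the share of all genes is not given, so those counts cannot be set against it.

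Cardiomyocyte scaling turned Kcnj5 to 0.11, Kcnh2 to 0.76 and Kcnip2 to 0.27 in log2 fold change, and turned the class differences, ISO minus saline in scaled FPKM, to 27.7 for Kv alpha, 13.4 for Kv auxiliary and 23.1 for inward rectifier genes. It put tandem-pore genes at -8.52, against -48.1 unscaled, and calcium- or sodium-activated genes at 10.03, against 0.141 unscaled. Kcnj3 turned to -0.034 with quantile normalization and -0.63 with quality weights. With 1 library left out, the log2 fold change ran from -0.84 to 0.76 for Kcnj3, from -0.87 to 0.32 for Kcnh2 (0.29 without ISO 3 and without saline 1) and from -0.97 to 0.21 for Kcnip2. The class difference ran from -14.7 to 0.709 FPKM for Kv auxiliary genes and from -1.35 to 1.21 FPKM for calcium- or sodium-activated genes, which median-of-ratios scaling put at -1.80. It ran from -45.0 to -7.32 for Kv alpha, -34.6 to -10.6 for inward rectifier, and -64.4 to -18.8 for tandem-pore genes. Log2 ratios turned sign within -1.69 to 0.027 for Kcnip2/Kcnd2, -0.57 to 2.05 for Kcne1/Kcnq1, -1.01 to 0.013 for Kcnj11/Abcc9 and -0.12 to 0.38 for Kcnj8/Abcc9. Shares in percentage points did so within -5.12 to 8.11 for Kcnh2, -17.9 to 6.53 for Kcnip2 and -5.20 to 10.6 for Kcnj3. The ratio Kcnj11/Kcnj8 (-0.89 to -0.37) kept its sign with each library left out. Depth limits genes of few reads, such as Hcn4, Kcne1l and Scn8a. The cause of these changes was not tested.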
